A study of Mus musculus with 8 samples.

Results

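The samples described here are the wild-type (WT) grafts of a study of beta cell protection in autoimmune diabetes, compared between 10 and 17 days after the transfer of autoreactive splenocytes. The members are all cells that the deposited annotation assigns to the WT library of either day, 10307 of the 22441 cells of the series, from 8 of its 16 grafts. NIT-1 cells, an insulinoma line of beta cells derived from the nonobese diabetic (NOD) mouse, were injected under the skin of NOD.scid mice, which lack T and B cells of their own, with unmodified (WT) cells in one flank and Rnls mutant cells in the other. Splenocytes of recently diabetic NOD mice were given 4 days later, and sorted CD45+ cells of each graft were marked with a hashtag oligonucleotide before droplet sequencing of 3' transcript ends. All 8 WT grafts thus share the host strain, the cell line and the splenocyte transfer, and the groups differ in the day of harvest (4 grafts at day 10, 4 at day 17). The 4 grafts of a day were pooled into 1 library, so the effect of the day and that of the library cannot be told apart.

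A graft of beta cells in a host without T and B cells of its own is attacked in an ordered way. Transferred CD4 and CD8 T cells enter and release interferon gamma, macrophages and dendritic cells answer with chemokines such as Cxcl9 and Cxcl10 that draw in further T cells, and monocytes arriving from the blood differentiate into macrophages. Macrophages that later clear debris and reshape tissue are known for the mannose receptor Mrc1, apolipoprotein E and complement C1q, and T cells that meet antigen for long come to express factors such as Tox.

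The day 10 library held 7617 cells in 4 grafts of 1865 to 1967 cells, and the day 17 library 2690 cells, with 875, 350, 1112 and 353 cells in grafts 1 to 4. Median depth per cell was 3382 unique molecular identifiers (UMIs) at day 10 and 5902 at day 17, and the summed UMIs of a graft ran from 2111071 to 9729233. Between the WT libraries, 8 cell barcodes were shared. The annotated types were checked against marker genes. All 6 granulocyte markers, all 6 B cell markers and 7 of 8 macrophage markers were highest in the type of that name, against 3 of 6 for monocytes, where Ly6c2, Plac8 and Vcan led and Csf1r and Lyz2 were higher in macrophages. Cd4 and Cd40lg were highest in CD4 T cells, Cd8a and Cd8b1 in CD8 T cells, and Foxp3 in regulatory T cells. Cells annotated Stem-Progenitor had the highest levels of all 5 markers of cycling cells, such as Mki67 and Top2a, and are called cycling cells here. Transcripts of macrophages in lymphoid cells (2 or more UMIs of C1qa, C1qb, C1qc and Lyz2 summed) were found in 11.3% of CD4 T cells, 10.2% of CD8 T cells, 11.1% of regulatory T cells and 11.2% of NK cells at day 10, and in 27.4%, 28.7%, 25.0% and 28.5% at day 17. Median depth in CD4, CD8 and regulatory T cells and NK cells was 2695.5, 2409, 2316.5 and 2193 UMIs at day 10. At day 17 it was 4336.5, 4098, 3630.5 and 3616.5 UMIs. The cut of 2 UMIs did not scale with depth, and the part of depth in these shares was not tested. Of the beta cell genes Ins1, Ins2, Iapp and Chga, only Ins2 was seen, with 2 UMIs in 1 graft at day 10.

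The first question is how the makeup of the infiltrate differed between the days. Macrophages were the type with the widest difference. They made up 25.8%, 14.8%, 15.7% and 11.7% of the cells in the grafts at day 10 and 29.9%, 30.6%, 79.6% and 55.5% at day 17, with means of 17.0% ± 6.14 and 48.9% ± 23.7 (SD, n = 4 each). Every graft at day 17 lay above every graft at day 10, although graft 1 of each day (25.8% and 29.9%) lay close together. Monocytes, from which such macrophages can arise, made up 12.5%, 12.5%, 15.6% and 21.4% at day 10 and 10.4%, 2.00%, 2.16% and 2.83% at day 17. The ratio of monocytes to macrophages was between 0.485 and 1.83 at day 10 and between 0.0277 and 0.349 at day 17.

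CD8 T cells, the cytotoxic T cells that kill beta cells, made up 20.6%, 22.5%, 20.4% and 18.5% of the cells at day 10 and 9.26%, 12.9%, 1.62% and 6.52% at day 17. The groups did not overlap for this type either. CD4 T cells, by contrast, overlapped, with 20.4% ± 6.35 at day 10 and 18.4% ± 11.0 at day 17, and the ratio of CD8 to CD4 T cells was 1.74, 0.839, 0.891 and 0.915 at day 10 against 0.284, 0.791, 0.266 and 0.359 at day 17. Regulatory T cells, which restrain other T cells, stood at 2.38% ± 0.747 and 2.36% ± 1.26. Cycling cells formed 4.88% to 5.80% of each graft at day 10, where the grafts lay close together, and 0% to 1.37% at day 17. In the graft with 0 of 350 cells, that count allows a share of up to 0.857%.

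In exact two-sided permutation tests over the 8 grafts, macrophages, monocytes, CD8 T cells, cycling cells and mast cells each gave p = 0.0286, the smallest value that 4 against 4 grafts allow, and an adjusted p of 0.0686 over 12 types, so no share passed 0.05. Mast cells numbered 1 at day 10 and 4 at day 17. For the ratio of CD8 to CD4 T cells (-1.45 on the log2 scale) and that of monocytes to macrophages (-3.58), the exact permutation p was likewise 0.0286 (adjusted over 6 ratios, 0.0857). Type 1 innate lymphoid cells (ILC1, annotated ILC-1), tissue cells related to NK cells, had 0.592% ± 0.327 at day 10 and 2.25% ± 1.47 at day 17 (exact permutation p = 0.0571, adjusted p = 0.114). NK cells had 10.7% ± 2.69 and 8.30% ± 9.57, dendritic cells 6.58% ± 1.61 and 4.57% ± 2.44, granulocytes 0.661% ± 0.258 and 2.20% ± 2.05, and B cells 0.158% ± 0.152 and 0.337% ± 0.540, all overlapping. The NK cell mean at day 17 rested on graft 2, with 22.6% against 2.25% to 4.69% in the other grafts.

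**Figure D1:**
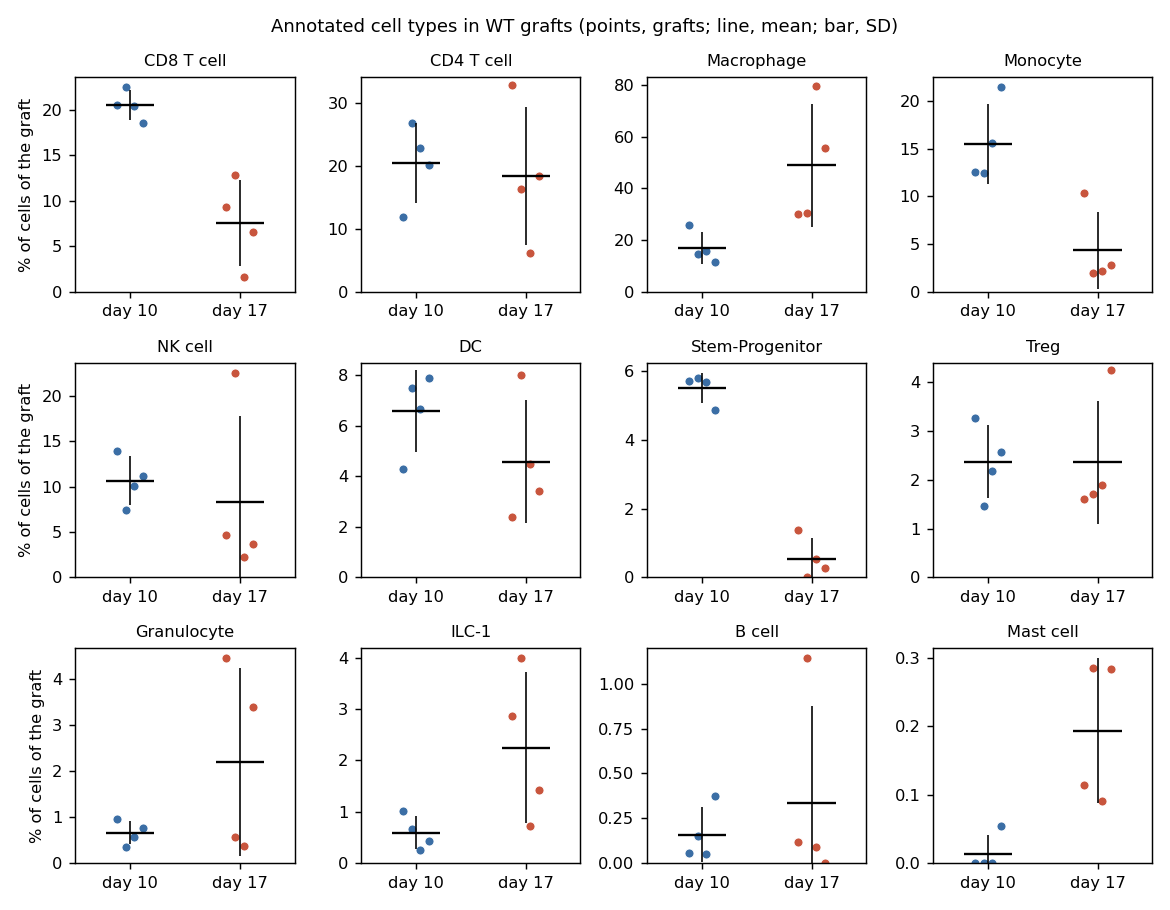
Share of each annotated cell type among the cells of a graft (percent, y axis) at day 10 (blue) and day 17 (red), with 1 point per graft, the mean as a line and the SD as a bar. Macrophages lay above 29% in every graft at day 17, and CD8 T cells, monocytes and cycling cells (labelled Stem-Progenitor) lay lower in every graft at day 17 than in any graft at day 10.

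The second question is how gene expression differed, first in the whole infiltrate and then within each cell type. UMIs were summed over all cells of a graft, or over its cells of 1 type, and are given as CPM, the UMIs of a gene per 1000000 UMIs of that sum. Of 12560 genes tested in all CD45+ cells, 37.9% were called at an adjusted p under 0.05 (edgeR quasi-likelihood test with Benjamini-Hochberg adjustment), 2570 higher and 2194 lower at day 17. The grafts of the days did not overlap for 20.4% of genes with day 17 above and 11.6% with day 17 below. In these sums, fewer cells of a type and less RNA per cell cannot be told apart. Mrc1, the mannose receptor of macrophages, stood at 98.9, 57.3, 97.9 and 97.3 CPM at day 10 and 528, 592, 712 and 524 CPM at day 17 and rose 6.27-fold (log2 fold change 2.65 ± 0.36, SE; adjusted p = 7.13e-05). Retnla, a secreted product of alternatively activated macrophages, rose 15.2-fold, and Fn1, which encodes fibronectin, 14.1-fold. Granzyme B, the protease of cytotoxic granules, stood at 785, 616, 620.1 and 430.3 CPM at day 10 and 109, 139, 149 and 114 CPM at day 17 and fell by 5.12-fold (adjusted p = 7.36e-06).

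Of the 19 genes of the list of resident macrophage and complement genes, 14 rose in the whole infiltrate and none fell (median log2 fold change 1.88, against 0.05 over all genes tested, where 20.5% were called higher). All 27 cell cycle genes fell (median -1.66), where 17.5% of all genes were called lower. Top2a, the topoisomerase of dividing cells, went from a mean of 184 ± 29.7 to 42.5 ± 22.1 CPM (SD, n = 4 each). Of 23 cytotoxic effector genes, 10 fell and none rose (median -0.84), with 6 lower without graft 1 at day 10 or without graft 4 at day 17. The shares of macrophages, cycling cells and CD8 T cells given above moved beside these lists, and their part in them was not tested. S100a8, a granulocyte product, was called higher with overlapping groups. It had 1011, 8.05, 36.6 and 429.8 CPM in grafts 1 to 4 at day 17 and 16.2 to 59.2 CPM at day 10, so that grafts 1 and 4 alone stood above the range of day 10, and without graft 1 at day 17 its adjusted p was 0.115. Of the genes called in these sums 53.9% were higher, and 66.2% with library sizes alone in place of TMM scaling, which moved the median log2 fold change of all genes from 0.05 to 0.15.

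Within single cell types, the change with the lowest list medians concerned heat shock genes, whose products refold damaged protein and which are also known to rise when tissue is digested into single cells. The 7 cell types with at least 3 grafts per day were compared, and 1978 genes were tested in all 7 of them. Of these genes, 11 were called lower in all 7 types and 1, Dennd4a, a gene for an exchange factor of Rab proteins, was called higher in all 7. Among the 11 were 7 chaperone genes or cofactors, Hspa1a, Hspa8, Hsp90aa1, Hspd1, Hspe1, Hsph1 and Dnaja1. The other 4 were Eif2s2, a subunit of a translation initiation factor, Nsa2, a factor of ribosome assembly, the ribosomal protein gene Rpl35, and the noncoding transcript Gm10076.

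Hsph1, a chaperone of the Hsp110 family, showed the change in each type. In macrophages it stood at 439, 400.1, 549.6 and 412 CPM at day 10 and 14.1, 28.9, 27.7 and 34 CPM at day 17, in CD8 T cells at 409, 812, 541 and 709 and 18.6, 20, 20.7 and 89.9 CPM, and in NK cells at 559, 1046, 685 and 919.5 and 6.42, 41.5, 0 and 72.4 CPM. Every graft at day 17 lay far below the lowest graft at day 10 in these types. The log2 fold changes (± SE) were -4.28 ± 0.38 in macrophages, -4.10 ± 0.47 in monocytes, -3.83 ± 0.42 in dendritic cells, -3.92 ± 0.30 in CD4 T cells, -4.52 ± 0.36 in CD8 T cells, -3.59 ± 0.76 in regulatory T cells and -4.95 ± 0.39 in NK cells. Of the 14 genes of the heat shock and dissociation stress list, 13 fell in macrophages, 12 in monocytes, 13 in dendritic cells, 11 of 13 tested in CD4 T cells, 11 of 12 in CD8 T cells, 8 of 12 in regulatory T cells and 11 of 13 in NK cells. In those types 13.1%, 1.78%, 4.77%, 10.1%, 6.32%, 4.55% and 4.87% of all tested genes were called lower. The count in regulatory T cells was 5 without graft 1 at day 17 and 4 with each cell thinned to 1000 UMIs. The list medians lay between -1.27 in regulatory T cells and -2.98 in NK cells on the log2 scale, against -0.01 in monocytes to 0.05 in NK cells over all genes. The grafts of a day were sorted and loaded as 1 library, so that the day and its handling cannot be told apart for these genes.

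Heat shock factor binds repeats of the bases GAA and TTC, and they are shown here for 2 genes that fell in all 7 types. They are printed as RefSeq windows of GRCm38.p6 from 250 bases before to 50 after the start of the gene, Hsph1 from chr5:149636287-149636586 on the minus strand and Hspe1 from chr1:55087898-55088197 on the plus strand, 5′ to 3′, with each match to GAANNTTC or TTCNNGAA in capitals (each pattern reads the same on both strands, and matches can overlap).
Hsph1: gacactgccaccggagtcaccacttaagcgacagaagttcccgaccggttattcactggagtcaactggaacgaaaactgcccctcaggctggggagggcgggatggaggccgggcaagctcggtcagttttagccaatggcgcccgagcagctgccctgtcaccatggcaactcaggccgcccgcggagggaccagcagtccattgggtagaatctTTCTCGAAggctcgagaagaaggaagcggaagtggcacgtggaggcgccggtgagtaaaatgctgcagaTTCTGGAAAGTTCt
Hspe1: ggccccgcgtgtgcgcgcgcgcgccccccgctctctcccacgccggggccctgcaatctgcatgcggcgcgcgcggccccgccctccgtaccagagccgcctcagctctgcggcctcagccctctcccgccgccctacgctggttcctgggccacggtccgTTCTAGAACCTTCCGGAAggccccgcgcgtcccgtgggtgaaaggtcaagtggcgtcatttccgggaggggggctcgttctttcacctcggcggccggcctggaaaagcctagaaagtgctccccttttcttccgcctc
Hsph1 and Hspe1 each held 3 matches. Of the 14 heat shock genes, 10 were matched to a window, and 7 of the 10 (70.0%) held at least 1 match, against 15.1% of the windows of all 27025 genes. Hsp90aa1, Hsp90ab1 and Hspa8 were among those not matched.

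**Figure D2:**
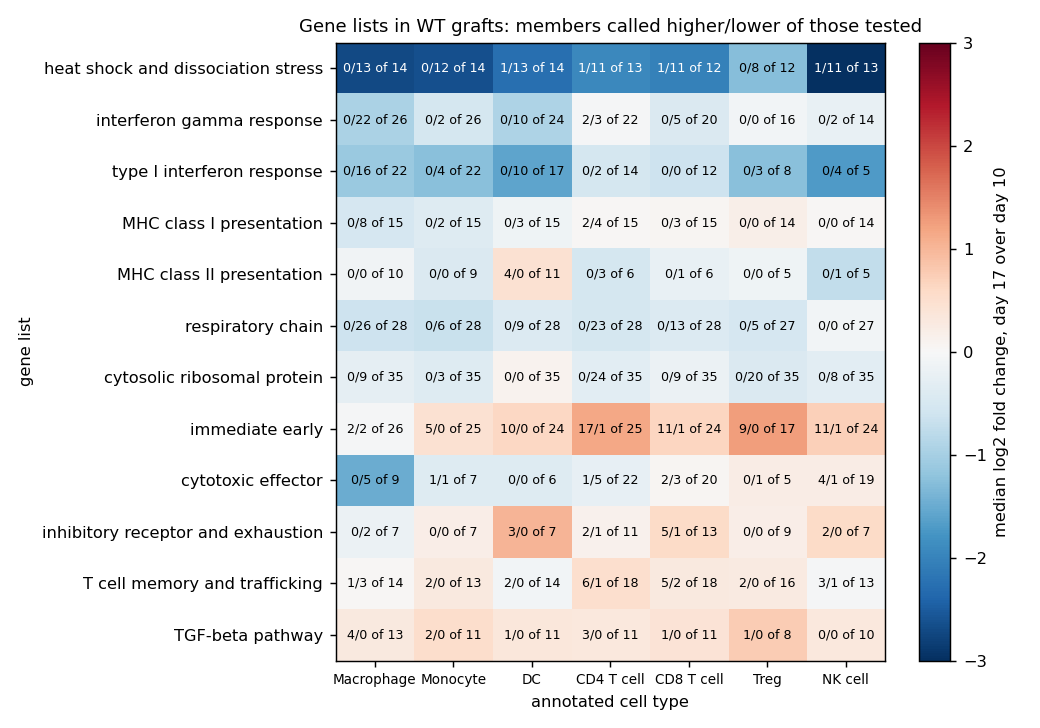
Gene lists (rows) in 7 cell types (columns) of WT grafts, coloured by the median log2 fold change of the tested members at day 17 over day 10, with the numbers called higher and lower and the number tested in each square. The heat shock list had the lowest median in every type (-1.27 to -2.98), the interferon gamma list was lowest in macrophages (-0.95) and dendritic cells (-0.93), and the immediate early list was above 0 in the 6 types other than macrophages.

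In macrophages, 25.1% of 9331 tested genes were called, 1124 higher (12.0%) and 1220 lower (13.1%) at day 17. The grafts of the days did not overlap, with day 17 above, for 18.3% of genes and, with day 17 below, for 7.36%. The genes that fell included the response to interferon gamma, the cytokine by which T cells and NK cells activate macrophages. Of 26 tested genes of that list, 22 fell and none rose (median log2 fold change -0.95). Cxcl9, a chemokine for T cells that carry Cxcr3, stood at 1518, 2949, 2155 and 1555 CPM at day 10 and 936, 774, 283 and 506 CPM at day 17 and fell by 3.7-fold (log2 fold change -1.89 ± 0.36, SE; adjusted p = 0.00129). Cxcl10, which acts on the same receptor, stood at 669.9, 1183, 709 and 733 and 245, 166, 162 and 148 CPM and fell by 5.16-fold. The groups did not overlap for either chemokine. Socs1, an inhibitor that the pathway induces against itself, fell by 3.79-fold, Cd274, the ligand PD-L1, by 2.18-fold, and Psmb8, a subunit of the immunoproteasome, by 1.91-fold.

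Genes induced by type I interferons, the antiviral interferons, fell in macrophages as well, 16 of 22 tested with none higher (median -1.10). Isg15, a ubiquitin-like protein, stood at 839, 603, 594 and 178 CPM at day 10 and 70.3, 150.2, 63.7 and 63 CPM at day 17 (log2 fold change -2.89 ± 0.39, SE; adjusted p = 9.38e-05), where day 10 graft 4 was the lowest of its group and still above every graft at day 17. Rsad2, the antiviral enzyme viperin, fell by 5.92-fold and Ifit1, a sensor of foreign RNA, by 6.25-fold. Of the 15 genes of MHC class I presentation, 8 fell, among them Tap1, Psmb8 and Psmb9, and none rose (median -0.51, and 5 lower with library sizes alone). None of the 10 tested genes of MHC class II presentation passed in either direction in macrophages (edgeR; median -0.11, and 0.06 with library sizes alone), and H2-Aa stood at 6884 ± 507 CPM at day 10 and 8214 ± 1197 CPM at day 17 (SD, n = 4 each; adjusted p = 0.645).

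The interferon stimulated response element, to which the factors of both interferon pathways bind, is shown in the promoters of a gene from each list, Cxcl10 from chr5:92348840-92349139 and Isg15 from chr4:156200769-156201068, both on the minus strand, with each match in capitals, searched on both strands as GAAA followed after 2 bases of any kind by GAAA, or TTTC followed likewise by TTTC (overlapping matches run together).
Cxcl10: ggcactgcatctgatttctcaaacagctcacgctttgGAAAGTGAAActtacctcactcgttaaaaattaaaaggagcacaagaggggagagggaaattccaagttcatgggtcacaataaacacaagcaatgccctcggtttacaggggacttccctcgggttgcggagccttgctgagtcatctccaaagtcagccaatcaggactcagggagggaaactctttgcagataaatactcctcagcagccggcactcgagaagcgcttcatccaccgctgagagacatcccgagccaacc
Isg15: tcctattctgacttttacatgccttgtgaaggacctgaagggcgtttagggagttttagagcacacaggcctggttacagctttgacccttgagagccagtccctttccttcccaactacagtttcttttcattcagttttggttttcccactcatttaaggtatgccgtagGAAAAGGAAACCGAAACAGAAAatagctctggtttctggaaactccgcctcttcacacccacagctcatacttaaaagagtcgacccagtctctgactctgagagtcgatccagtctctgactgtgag
Isg15 held 3 overlapping matches and Cxcl10 1. Of 27 interferon gamma genes, 20 were matched to a window and 12 (60.0%) held a match. For the type I list, 17 of 24 were matched and 8 (47.1%) held one, against 3.49% of all windows. The gamma activated site TTCNNNGAA, which also reads the same on both strands, was held by 10 of the 20 interferon gamma windows (50.0%) and 8.47% of all windows. Cxcl9 held no response element in this window, and Ciita, Gbp4, Gbp6, Iigp1, Nos2 and Ido1 were among those not matched.

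The genes that rose in macrophages included those of resident and tissue-repair macrophages, 7 of 18 tested with none lower (median 0.91). Mrc1 stood at 271, 215, 398 and 348 CPM at day 10 and 1298, 1426, 887 and 782 CPM at day 17 within macrophages and rose 3.16-fold (log2 fold change 1.66 ± 0.35, SE; adjusted p = 0.00241). Selenop, a selenium carrier, rose 2.56-fold, the coagulation factor gene F13a1 2.92-fold, and Trem2, a lipid receptor, 2.55-fold, each with no overlap between the days. Apoe rose 4.17-fold with a wide spread, 1044, 307, 2269 and 657 CPM at day 10 and 7128, 8675, 1088 and 2988 CPM at day 17, so that graft 3 at day 17 lay within the range of day 10. Leaving out any 1 graft left 2 (without graft 1 at day 17) to 6 of the 18 genes higher. The calls of Selenop (adjusted p = 0.1003) and F13a1 (0.0556) ended without graft 1 at day 17, and that of Apoe, among other grafts, without graft 2 at day 10 (0.105). C1qa, of the first complement component, stood at 1856 ± 419 and 2509 ± 926 CPM (SD, n = 4 each; adjusted p = 0.625). C1qa was called higher in the whole infiltrate and not within macrophages.

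Other macrophage genes were divided. Of 23 lipid handling and lysosomal genes, 7 rose (4 without graft 2 at day 10) and 2 fell (0 without graft 1 at day 17; median 0.35), with Abca1, the cholesterol exporter, at 213, 225, 204 and 231 and 683, 284, 578 and 542 CPM and Cd36, a receptor for oxidized lipid, up 2.69-fold. Of 17 genes of arginine metabolism and alternative activation, 1 rose and 7 fell (median -0.85). The gene that rose was Retnla, with 898, 1006, 369 and 368 CPM at day 10 and 4110, 11140, 1524 and 4973 CPM at day 17 (adjusted p = 0.00496). Ass1, which regenerates arginine from citrulline, fell by 3.85-fold with no overlap, and Nos2, the inducible nitric oxide synthase, by 3.25-fold with overlap (52.1 to 170.3 and 2.31 to 94.5 CPM; adjusted p = 0.0937 without graft 2 at day 10). Arg1, arginase, stood at 115, 35.1, 9.52 and 59.2 CPM and 2.08, 1.16, 276 and 39.7 CPM (adjusted p = 0.721), and the day 17 mean was set by graft 3.

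Of 25 inflammatory myeloid genes, 7 fell and 1 rose in macrophages (median -0.53), with 4 lower without graft 1 or graft 2 at day 10. Il1b, interleukin 1 beta, fell by 2.06-fold with overlap (adjusted p = 0.0958 without graft 2 at day 10), and Il1rn, its receptor antagonist, by 3.61-fold without (431 to 926 CPM at day 10, 139.9 to 281 at day 17). Of 24 genes of glycolysis and hypoxia, 6 fell, and of 28 nuclear genes of the respiratory chain 26 fell, with none of either list higher (medians -0.54 and -0.62). The first count rested on single grafts, with 2 genes lower without graft 1 and 18 without graft 3 at day 17. Cox5b, of cytochrome c oxidase, stood at 663, 694, 668 and 680 CPM at day 10 and 398, 366, 426 and 473 CPM at day 17. With library sizes alone in place of TMM scaling, 18 of the 28 respiratory chain genes were lower, and 74.1% of all called genes were higher at day 17 in place of 48.0%, since that scaling moved the median log2 fold change of all genes to 0.21.

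Beyond the lists, the genes with the smallest p among those that rose in macrophages without overlap included Pid1, which takes part in insulin signaling, at 71.2, 81.2, 71.7 and 61.3 and 268, 369.7, 356 and 222 CPM (log2 fold change 1.91 ± 0.16, SE; adjusted p = 1.05e-06), the insulin receptor gene Insr (2.84-fold higher), Zbtb20, a transcription factor (3.36-fold higher), and Agmo, an enzyme of ether lipid breakdown (7.4-fold higher). Among those that fell it was smallest for Gm10076, described below, and Polr2l, a subunit of RNA polymerases. Fn1 rose 7.89-fold with overlap, 20.6, 179, 24.1 and 82.4 CPM at day 10 and 153, 489.9, 902 and 1146 CPM at day 17. Of 13 tested genes of the TGF-beta pathway, 4 rose (Tgfb2, Tgfbr2, Ski and Ltbp3, with 2 higher without graft 4 at day 10 or graft 1 at day 17) and none fell, while Tgfb1 itself had 137 to 163 and 175 to 275 CPM (adjusted p = 0.103). Gzma and Gzmb, granule genes of T cells and NK cells, fell in the macrophage sums from means of 18.5 and 6.82 CPM to 2.04 and 0.456 CPM, beside their fall in the whole infiltrate, and the part of RNA from those cells was not tested.

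**Figure D3:**
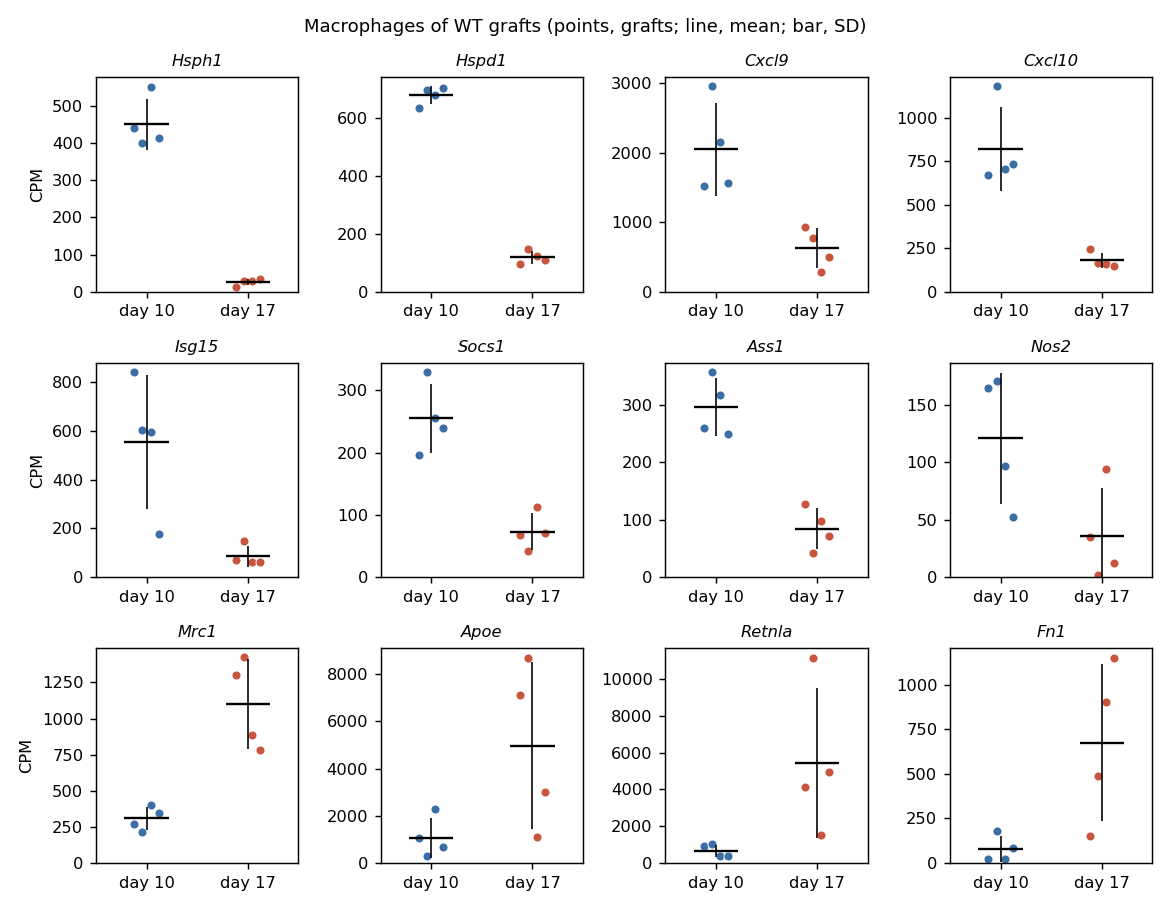
CPM of 12 genes in the macrophages of each WT graft (y axes, linear from 0) at day 10 (blue) and day 17 (red), with the mean as a line and the SD as a bar. The heat shock, interferon and arginine genes of the first 2 rows lay lower at day 17, with overlap for Nos2, and the means of Mrc1, Apoe, Retnla and Fn1 were higher at day 17, with overlap for Apoe and Fn1.

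In monocytes, 3.84% of 8092 tested genes were called, 167 higher and 144 lower, from 4 grafts at day 10 and 3 at day 17, since graft 2 held fewer than 10 monocytes at day 17. Without overlap, 9.42% of genes lay above and 6.72% below. Monocytes at day 17 numbered 125 in these 3 grafts, 91 of them in graft 1. Oasl1, an interferon induced gene that limits translation of Irf7, stood at 309.8, 227, 207 and 135 CPM at day 10 and 16.8, 20.1 and 0 CPM at day 17 and fell by 14.6-fold (adjusted p = 6.29e-06). Of 22 type I interferon genes 4 fell, and of 26 interferon gamma genes 2 fell, with none higher. Without graft 1 at day 17 these counts were 2 and 0, and without graft 3 they were 10 and 9. Klf2, a factor of quiescence, rose 3.59-fold, Pid1 3.96-fold and Nr4a1, a factor of patrolling monocytes and of early activation, 3.91-fold. Il1b rose in monocytes, from 579, 649, 594 and 473 CPM to 2621, 970.5 and 787 CPM (adjusted p = 0.035), and Il1rn fell by 2.86-fold. Il1b fell in macrophages, and the log2 ratio of macrophages to monocytes of the same graft was lower by 1.79 at day 17 (exact permutation p = 0.0571, adjusted p = 0.329 over 23 genes), which did not pass. Tgfb1, the main TGF-beta ligand of immune cells, rose 1.74-fold (adjusted p = 0.0495). Its call was lost under 12 of 17 alternative settings, 6 of which left out a single graft. The calls of Il1b and Il1rn in monocytes were lost under 8 settings each. Without graft 1 at day 17 the adjusted p was 0.553 for Il1b, 0.262 for Il1rn, and 0.556 for both Nr4a1 and Tgfb1. Without graft 1 at day 17 the number of genes called in monocytes was 36 and without graft 3 it was 1299, so this count rests on single grafts. Of the called genes 53.7% were higher, and 77.0% with library sizes alone.

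Dendritic cells, which present antigen to T cells, had 10.2% of 5700 genes called, 307 higher and 272 lower, from 502 cells at day 10 and 111 at day 17, and 7.05% of genes lay above and 7.89% below without overlap. Interferon genes fell in dendritic cells too, with 10 of 24 interferon gamma and 10 of 17 type I genes lower and none higher (medians -0.93 and -1.59). The counts were 8 to 15 and 5 to 12 when 1 graft was left out, the type I count being 5 without graft 3 of either day, and 5 and 2 with each cell thinned to 1000 UMIs. Cxcl10 stood at 1370, 1510, 1435 and 979 CPM at day 10 and 108, 12.4, 205 and 108 CPM at day 17 and fell by 11.3-fold, and Cxcl9 by 4.87-fold. Of the genes of MHC class II presentation, 4 of 11 rose and none fell (median 0.46), where 5.39% of all genes were called higher. H2-Aa, an MHC class II chain, stood at 7183, 6802, 6888 and 7360 and 10130, 10840, 10240 and 8217 CPM (log2 fold change 0.49 ± 0.12, SE; adjusted p = 0.0127), and Cd74, the invariant chain, rose 1.41-fold. Without graft 3 at day 10 the adjusted p of H2-Aa was 0.05015. The log2 ratio of macrophages to dendritic cells of the same graft changed by -0.23 for H2-Aa and -0.34 for Cd74 (exact permutation p = 0.229 and 0.0286, adjusted p = 0.486 and 0.162 over 17 genes), so neither difference between the types passed.

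Of the 24 genes of the dendritic cell list, 4 rose (Xcr1, Clec9a, Wdfy4 and Cd83) and 2 fell (Irf4 and Cd40), and 12 had estimates above 0 and 12 below (median -0.0034, against 0.02 over all genes). Clec9a and Xcr1 are known from the cross-presenting subset cDC1, as is Cadm1, which is in no list and was named for its small p. Clec9a, a receptor for dead cells, had 60.4, 90.5, 70.3 and 77.4 CPM at day 10 and 233, 189, 332 and 120.4 CPM at day 17, Xcr1, a chemokine receptor, 25.5, 72.5, 63.8 and 44.5 and 117, 108, 357 and 120.4 CPM, and the adhesion gene Cadm1 104, 125, 111 and 177 and 475, 496, 400.2 and 336 CPM. All 3 rose with no overlap (adjusted p = 0.000949, 0.0095 and 0.000171), and the adjusted p of Xcr1 was 0.0945 without graft 3 at day 17. Irf4, a factor of the other conventional subset (cDC2), fell by 4.7-fold, and Ccl17, a chemokine of that subset and of migratory cells, by 10-fold. Ifngr1, a chain of the interferon gamma receptor, rose 2.52-fold. Since dendritic cells were summed as 1 type, a larger part of cDC1 among them and a higher level per cell cannot be told apart in these sums.

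In CD8 T cells, 11.7% of 6379 genes were called, 345 higher and 403 lower, from 1562 cells at day 10 and 167 at day 17, with 18 to 81 cells per graft at day 17. Without overlap, 9.77% of genes lay above and 5.35% below at day 17. Genes of effector function were divided, 2 of 20 tested higher and 3 lower (median 0.06). Over all genes tested in CD8 T cells, 5.41% were called higher and 6.32% lower. Gzma, granzyme A, stood at 3734, 2670, 3678 and 2871 CPM at day 10 and 858, 1276, 392 and 2397 CPM at day 17 and fell by 2.97-fold (log2 fold change -1.57 ± 0.29, SE; adjusted p = 0.000505). Gzmb fell by 1.91-fold with overlap, with 1589 to 1929 CPM at day 10 and 455, 405, 2169 and 1508 CPM in grafts 1 to 4 at day 17, where graft 3 stood above all grafts of day 10, and its adjusted p was 0.1345 without graft 1 at day 17. Prf1, the pore protein perforin, had 220.3 ± 29.3 and 261 ± 144 CPM, and Ifng 314 ± 41.9 and 454 ± 272 CPM (SD, n = 4 each; adjusted p = 0.925 and 0.573). The chemokine Ccl4 rose 4.21-fold, 107, 186, 149.5 and 202 CPM at day 10 and 548, 145, 1539 and 1109 CPM at day 17, with graft 2 at the level of day 10.

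Of 13 tested inhibitory receptor and exhaustion genes, 5 rose (3 without graft 1 at day 17) and 1 fell in CD8 T cells (median 0.58), where 5.41% of all genes were called higher. Tox, a factor of T cells under lasting stimulation, stood at 72, 36, 35.1 and 38.9 CPM at day 10 and 424, 145, 309.8 and 169.8 CPM at day 17 and rose 5.54-fold (log2 fold change 2.47 ± 0.36, SE; adjusted p = 2.23e-05). Maf, a transcription factor, rose 5.01-fold, Nr4a2, an early response factor, 2.69-fold, both without overlap, and the inhibitory receptor gene Lag3 2.42-fold with overlap (adjusted p = 0.137 without graft 1 at day 17). Havcr2, which encodes the receptor Tim-3, went the other way, from 597, 482, 493 and 493 CPM to 149, 65, 309.8 and 79.9 CPM. Pdcd1, which encodes PD-1, had 52.2 to 239.6 and 72.3 to 214 CPM (adjusted p = 0.873), and Tcf7, a factor of memory T cells, 28.4 to 75.6 and 51.6 to 99.9 CPM (adjusted p = 0.25). Of 18 memory and trafficking genes, 5 rose and 2 fell (0 lower without graft 3 at day 10), with Klf2 2.67-fold, Lef1 1.87-fold (adjusted p = 0.0578 without graft 1 at day 17) and, with overlap, the survival gene Bcl2 2.54-fold higher. Of 28 respiratory chain genes 13 fell (median -0.40), against 2 with each cell thinned to 1000 UMIs and 5 with library sizes alone, under which 72.2% of all called genes were higher in place of 46.1%.

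CD4 T cells had 20.7% of 7858 genes called, 833 higher and 797 lower, and 15.1% of genes lay above and 5.23% below without overlap. The immediate early genes, which stimulated cells transcribe within minutes, were prominent among those that rose, 17 of 25 against 1 that fell (median 1.15), where 10.6% of all genes were called higher. Junb stood at 691, 546, 515 and 612 CPM at day 10 and 1924, 1736, 1919 and 1642 CPM at day 17 (log2 fold change 1.46 ± 0.12, SE; adjusted p = 1.79e-08), and Cd69, an early marker of activation and of tissue residence, at 131, 121, 103 and 138 and 405, 404, 576 and 391 CPM. Nr4a1, a marker of recent antigen receptor signaling, rose 3.11-fold. The same list had 11 of 24 genes higher in CD8 T cells, 9 of 17 in regulatory T cells, 11 of 24 in NK cells, 10 of 24 in dendritic cells and 5 of 25 in monocytes, against 2 of 26 higher and 2 lower in macrophages (median -0.03, and 0.14 with library sizes alone). Without graft 1 at day 17, 5 genes were higher in CD8 T cells and 0 in monocytes and macrophages, and with each cell thinned to 1000 UMIs 6 in CD8 T cells and 1 in regulatory T cells. In monocytes, regulatory T cells and NK cells, 2.06%, 3.99% and 4.2% of all genes were called higher.

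In CD4 T cells the memory and trafficking list had 6 of 18 genes higher and 1, S1pr1, lower (median 0.50), and 10 were higher without graft 3 at day 17. Klf2, the factor that controls exit from tissue, rose 2.15-fold, Lef1 2.07-fold and Bcl2 2.51-fold, all without overlap, and the inhibitory receptor gene Ctla4 rose 2.51-fold with overlap (283, 185, 232 and 158 and 784, 198, 823 and 499 CPM). Without graft 1 at day 17 the adjusted p was 0.0869 for Lef1 and 0.173 for Havcr2. Smad7, an inhibitor of TGF-beta signaling that the pathway induces, rose 1.76-fold. Of 22 cytotoxic genes 5 fell (2 without graft 4 at day 17), with Gzma at a mean of 122 and 51.1 CPM, and 1, Fasl, rose (median -0.24). Among all genes tested in CD4 T cells, 10.1% were called lower and 10.6% higher. Havcr2 fell by 2.5-fold, with 44.5, 16.5, 358 and 53.9 CPM in grafts 1 to 4 at day 17, where graft 3 stood above all grafts of day 10 (222 to 292 CPM). Of 35 ribosomal protein genes 24 fell, each by little (median -0.31), and of 28 respiratory chain genes 23 fell (median -0.52). With library sizes alone, 8 and 14 of them were lower, and 76.7% of all called genes in CD4 T cells were higher in place of 51.1%.

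Regulatory T cells were tested from 180 cells at day 10 and 50 in 3 grafts at day 17 (8.54% of 2331 genes called, 93 higher and 106 lower). Without overlap, 11.5% of their genes lay above and 8.84% below. Foxp3, the factor that defines them, had 318, 296, 331 and 290.4 CPM at day 10 and 162, 400.5 and 296 CPM at day 17 (adjusted p = 0.915). Ikzf2, which encodes Helios, rose 1.42-fold without overlap (1899, 1960, 2091 and 1917 and 3350, 2686 and 2798 CPM), and Areg, a growth factor of tissue repair, 2.15-fold, with most of the rise in graft 3 (554, 2061 and 847 CPM in grafts 1, 3 and 4). Gzmb fell by 2.28-fold with overlap. The adjusted p was 0.169 for Ikzf2 without graft 1 and 0.6495 for Areg without graft 3 at day 17. Of 35 ribosomal protein genes 20 fell (median -0.44), against 3 with each cell thinned to 1000 UMIs and 9 with library sizes alone, under which 68.2% of the called genes were higher in place of 46.7%.

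NK cells had 9.07% of 3263 genes called, 137 higher and 159 lower, from 810 cells at day 10 and 158 at day 17, and 7.85% of genes lay above and 5.67% below without overlap. The granule genes showed no call, with Gzma at 6826 ± 1364 and 8163 ± 2758 CPM, Gzmb at 951 ± 277 and 1810 ± 1916 CPM and Prf1 at 897 ± 82.6 and 1507 ± 1177 CPM (SD, n = 4 each; adjusted p = 0.724, 0.243 and 0.239). The SD of Gzmb at day 17 came from graft 3 (1272, 539, 4647 and 782 CPM in grafts 1 to 4). Ccl4 stood at 787, 1445, 699.7 and 934 CPM at day 10 and 2525, 2166, 4455 and 1896 CPM at day 17 and rose 2.77-fold (adjusted p = 0.00179). Itga1, the integrin CD49a carried by tissue-resident cells and ILC1, had 15.5, 19.4, 10.4 and 24.8 and 51.4, 96.8, 71.3 and 57.9 CPM and rose 3.96-fold without overlap. Eomes and Tcf7, factors of conventional NK cells, fell by 1.59-fold and 2.77-fold (568, 499, 455 and 440.1 CPM and 289, 373, 235 and 434 CPM for Eomes). The adjusted p was 0.0777 for Eomes without graft 1 at day 10 and 0.197 for Tcf7 without graft 2 at day 17. Type I interferon genes fell, 4 of 5 tested, with Irf7 at 346, 489, 523 and 548 and 218, 169, 35.6 and 217 CPM. Cxcl10 in the NK cell sums fell by 4.96-fold, close to its fall in macrophages (5.16-fold), while the share of NK cells with macrophage transcripts was 11.2% at day 10 and 28.5% at day 17, and the part of those transcripts was not tested. With library sizes alone 67.1% of the genes called in NK cells were higher in place of 46.3%.

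**Figure D4:**
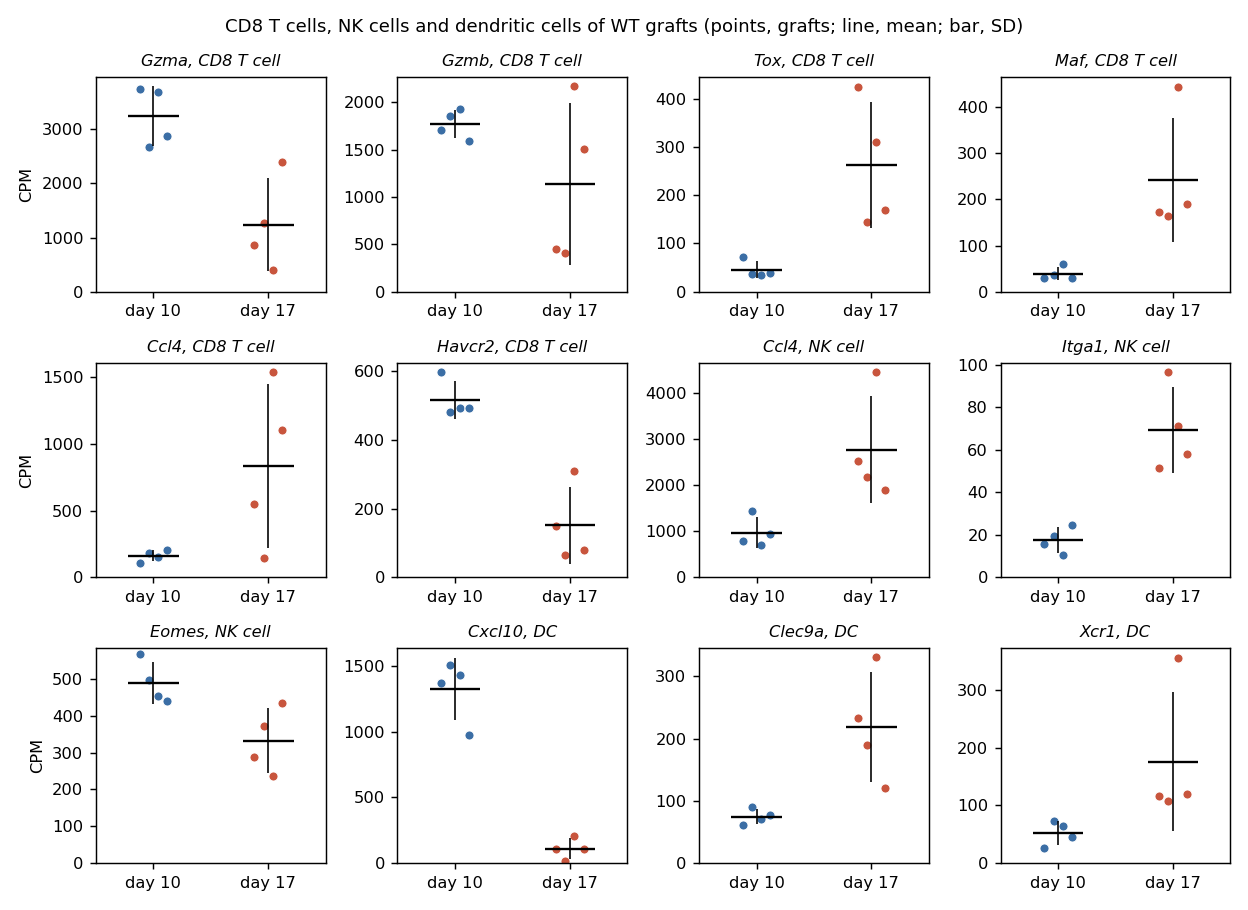
CPM per WT graft (y axes, linear from 0) of 6 genes in CD8 T cells, 3 in NK cells and 3 in dendritic cells at day 10 (blue) and day 17 (red), with the mean as a line and the SD as a bar. Tox, Maf, Itga1, Clec9a and Xcr1 lay higher in all grafts of day 17, and Gzma, Havcr2, Eomes and Cxcl10 lower, while Gzmb and Ccl4 overlapped in CD8 T cells and Ccl4 lay higher in NK cells.

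Granulocytes and ILC1 could be tested in few grafts. Granulocytes, from 43 cells in 3 grafts and 51 cells in 2 grafts, had 2.7% of 927 genes called, 10 higher (1.08%) and 15 lower (1.62%), that is 40.0% of calls higher, and 23.3% with library sizes alone. Without overlap, 14.9% of their genes lay above and 16.5% below. S100a8, which encodes a subunit of calprotectin, had 9226, 15650 and 19790 CPM at day 10 and 50200 and 38100 CPM at day 17 (adjusted p = 0.00903), the formyl peptide receptor gene Fpr1 rose 8.91-fold, and Cxcl10 fell by 4.93-fold. H2-Eb1 and Cd74, of MHC class II, fell by 8.02-fold and 6.34-fold. Without graft 1 at day 17 the adjusted p was 0.0908 for S100a8 and 0.0602 for H2-Eb1, and without graft 4 at day 17 it was 0.212 for Cxcl10 and 0.0694 for Cd74. ILC1, from 32 and 39 cells in 2 grafts per day, had 0.395% of 1770 genes called, 3 higher (0.169%) and 4 lower (0.226%), that is 42.9% of calls higher, and 72.7% with library sizes alone. With 2 grafts a day, 31.6% of their genes lay above and 17.2% below without overlap. Gzmb stood at 1687 and 1547 CPM at day 10 and 226 and 126 CPM at day 17 (adjusted p = 0.0417), the early response genes Klf6 and Nr4a2 rose 9.14-fold and 7.29-fold, and Hspd1 fell by 9.18-fold. All 4 of these calls ended without graft 1 or graft 2 of day 10 (adjusted p up to 0.341). An exact permutation test cannot go below p = 0.333 with 2 against 2 grafts, as in ILC1. With 4 against 3, as in monocytes and regulatory T cells, it cannot go below 0.0571. The calls in these types and in granulocytes (3 against 2 grafts) rest on the fitted model alone. So do the gene calls in the types with 4 grafts a day, where that test cannot go below 0.0286 before adjustment over genes.

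The spread between grafts was wider at day 17 in the 7 types with at least 3 grafts per day. Over genes with a mean of at least 50 CPM, the median SD of log2 CPM between the grafts of a day was 0.155 at day 10 and 0.236 at day 17 in macrophages, 0.149 and 0.384 in CD8 T cells, 0.212 and 0.451 in NK cells, 0.15 and 0.281 in CD4 T cells, 0.34 and 0.476 in regulatory T cells, 0.1715 and 0.509 in monocytes and 0.2025 and 0.381 in dendritic cells. It went the other way in granulocytes (0.705 and 0.379) and lay close together in ILC1 (0.364 and 0.367). T cells, NK cells, monocytes and dendritic cells were fewer in total at day 17, while macrophages numbered 1293 at day 10 and 1450 at day 17. The part of cell number in this spread was not tested.

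A last comparison asked where the change between days in WT grafts differed from that in the Rnls mutant grafts. These were carried by the opposite flanks and sequenced in 2 further libraries. Grafts of opposite flanks shared a host and its transferred splenocytes, so the changes in the 2 genotypes are not independent. The fit took all grafts as separate, and its p-values do not account for this pairing. Of the genes called in WT grafts, 97.9% in macrophages, 93.8% in CD4 T cells, 89.7% in CD8 T cells and 88.85% in NK cells had the same direction in the mutant grafts, against 81.45%, 74.0%, 67.35% and 64.3% of all genes tested. The same share was 97.1% in monocytes, 95.2% in dendritic cells and 79.9% in regulatory T cells, against 68.5%, 73.25% and 65.0%. In granulocytes it was 64.0% of 25 genes, near the 61.1% of all genes, and no gene was called in the same direction in both genotypes. The difference of the 2 changes was called for 3 genes in macrophages (0.0322% of those tested), 2 in dendritic cells (0.0351%), 0 in monocytes (0.0%, and 408 at an unadjusted p under 0.05, edgeR), 50 in CD4 T cells (0.636%), 42 in CD8 T cells (0.658%), 26 in regulatory T cells (1.12%), 13 in NK cells (0.398%), 12 in granulocytes (1.29%), 1 in ILC1 (0.0565%) and 18 in all CD45+ cells (0.143%). DESeq2 called 7 in monocytes, 43 in macrophages and 93 in all CD45+ cells. In macrophages the 3 were Gm10076, Nsa2 and Cmss1, the calls of the latter 2 ending when single grafts were left out (adjusted p = 0.0992 for Nsa2 without graft 2 and 0.116 for Cmss1 without graft 3 at day 10). Gm10076, a noncoding gene at chr14:105681828-105682211 of GRCm38, stood at 401, 454, 431 and 488 CPM at day 10 and 126, 138, 139 and 164 CPM at day 17 in WT macrophages, and its log2 fold change of -1.81 compared with -0.35 in mutant ones (difference -1.46 ± 0.17, SE; adjusted p = 0.000644).

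In the lymphoid types, the genes called for the difference included transcripts of macrophages. Ccl8, a chemokine of macrophages, had 105 ± 20.8 and 116 ± 36.4 CPM in WT CD8 T cells (SD, n = 4 each; adjusted p = 0.906) and a log2 fold change of 3.81 in mutant ones (difference -3.87 ± 0.27, SE; adjusted p = 7.42e-11). Apoe rose 4.19-fold in WT CD8 T cells and 4.28-fold in WT CD4 T cells, and the differences from the mutant were -4.12 and -3.82 on the log2 scale. Without the cells with macrophage transcripts, the adjusted p of Apoe in WT CD8 T cells was 0.414. The share of CD8 T cells with macrophage transcripts, as defined above, went from 10.2% to 28.7% in WT grafts and from 3.05% to 56.0% in mutant grafts, and their part in the differences from the mutant was not tested. Among other genes, Cd69 in regulatory T cells rose 3.49-fold in WT grafts against a log2 change of -0.50 in mutant ones (adjusted p of the difference = 0.026, and 0.160 without graft 3 at day 17), and Ppp1r15a, a gene of the integrated stress response, rose 4.13-fold in WT CD4 T cells against 0.93 on the log2 scale in the mutant (adjusted p of the difference = 0.027, and 0.0808 without graft 3 at day 10). Rps29 fell in WT regulatory T cells (log2 fold change -0.85) and stood at 0.21 in the mutant (adjusted p of the difference = 0.000731).

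**Figure D5:**
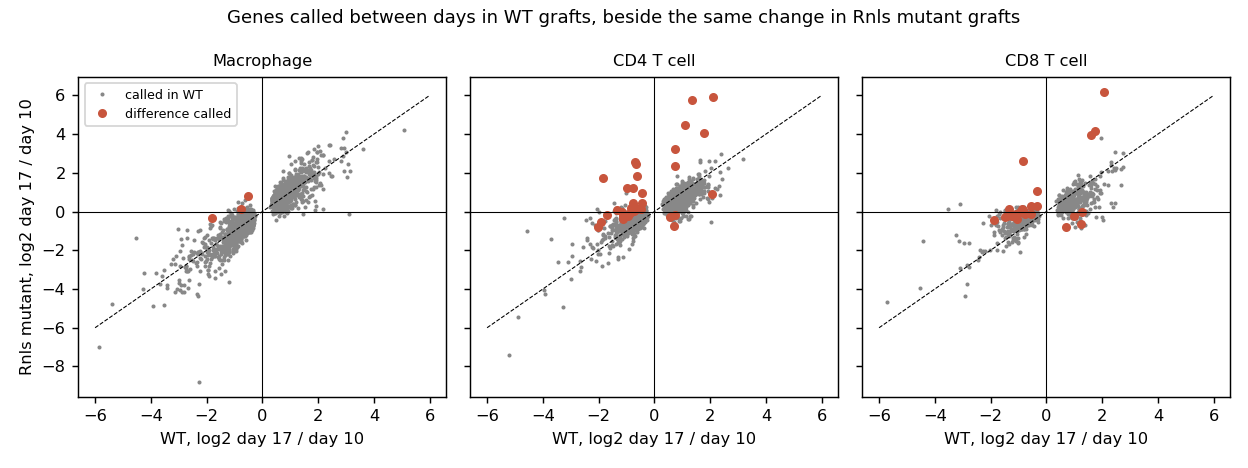
Log2 fold change between days in WT grafts (x axis) and in Rnls mutant grafts (y axis) for the genes called in WT macrophages, CD4 T cells and CD8 T cells, 1 point per gene, with genes whose difference was called in red and the line of equal change dashed. In macrophages 97.9% of the points share their sign between genotypes, and the points far above the line in T cells include Apoe (5.91 and 6.19 in mutant CD4 and CD8 T cells).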

How the data were processed

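The WT and Rnls mutant grafts were profiled by droplet 3' sequencing of sorted CD45+ cells, 4 hashtagged grafts per library. As deposited by the authors, the values are unnormalized counts of UMIs for every gene in every cell, with a table of each cell's library, hashtag and annotated cell type. The submitters' processing notes name Cell Ranger and the mm10 genome, and the Cell Ranger version is not given in the sources used here. The deposited cells had at least 1001 UMIs and at most 9.736% mitochondrial UMIs. No doublet caller was run on them here, and whether doublets were removed before deposit is not given in the sources used here. Cell types were taken from the deposited annotation.

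Counts were summed per graft within each cell type, for grafts with at least 10 cells of it. All 16 grafts entered 1 edgeR 4.0.16 quasi-likelihood fit per cell type (R 4.3.3, TMM scaling, edgeR's filter on low counts) with a group per genotype and day, and p-values were adjusted by Benjamini-Hochberg over all tested genes at 0.05. No source states that grafts of equal hashtag number came from 1 mouse. Correlations of deviations (-0.0899 to 0.25) were taken between WT grafts of equal number at day 10 and day 17, which were harvested on different days. They cannot show whether a WT and a mutant graft of the same day shared a mouse, and that pairing was not checked. Printed folds are 2 raised to the fitted log2 fold change. Shares and ratios (0.5 cells added to each number) were compared by exact two-sided permutation over grafts (SciPy 1.17.1). Intervals and limits cover counting error only. p-values measure the spread between grafts within libraries, with 1 library per genotype and day. In the edgeR fits that spread was estimated from WT and mutant grafts together, and in the permutation tests it came from WT grafts alone. Alternatives were DESeq2 1.42.0, library sizes without TMM, no filter, a replicate block, WT grafts alone, cells thinned to 1000 UMIs, removal of cells with the most UMIs or with transcripts of another lineage, other cell minimums and leaving out each graft.

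The members, gene lists and marker lists were chosen with earlier results of these data known. Genes were named by rule: per type up to 6 called genes per direction without overlap and with the smallest p, up to 4 called members per list, 42 key genes, and up to 5 genes per direction for the difference between genotypes. Not all of these are described. Promoter windows came from RefSeq (GRCm38.p6), the first listed per gene. Values of some single genes are not reported here.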

Additional observations from a re-analysis of the deposited data

Results flagged for a closer look

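Single grafts stood apart from the other 3 of their day in 25 of 313 sets of 4 values examined (7.99%), where chance gives about 5.0%, and 7 of the 25 came from graft 3 of day 17 and 0 from graft 3 of day 10. Among the shares these were B cells (1.143%) and NK cells (22.57%) in graft 2, monocytes (10.4%) in graft 1 and regulatory T cells (4.249%) in graft 4 at day 17, and mast cells (0.05362%) and cycling cells (4.879%) in graft 4 at day 10. The ratio of CD8 to CD4 T cells in graft 1 at day 10 was 1.736.

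In all CD45+ cells, Mrc1 stood apart in graft 2 at day 10 (57.3 CPM) and Mki67 in graft 1 at day 17 (45.9 CPM). In macrophages the values were 1180 CPM of Cxcl10 in graft 2 at day 10, 150.0 CPM of Isg15 in graft 2 at day 17 and 276 CPM of Arg1 in graft 3 at day 17. In dendritic cells they were 5120 CPM of H2-Eb1 in graft 2 at day 10, and 357 CPM of Xcr1 and 169 CPM of Ifngr1 in graft 3 at day 17. In CD8 T cells graft 1 at day 10 had 72.0 CPM of Tox and 597 CPM of Havcr2, and at day 17 graft 3 had 444 CPM of Maf and graft 4 89.9 CPM of Hsph1. In CD4 T cells at day 17, graft 3 had 576 CPM of Cd69, 358 CPM of Havcr2 and 4900 CPM of Rpl41, and graft 2 had 359 CPM of Smad7, while graft 1 at day 10 had 222 CPM of Havcr2. In NK cells graft 1 at day 10 had 62.0 CPM of Ccl8.

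The change between days in WT grafts differed from that in Rnls mutant grafts (edgeR, adjusted p under 0.05, log2 difference of WT minus mutant) for Gm10076 in all CD45+ cells (-1.36), macrophages (-1.462) and dendritic cells (-1.619, adjusted p = 0.0501 without graft 3 at day 10), and for Nsa2 (-0.9012) and Cmss1 (-1.294) in macrophages. For the chemokine gene Ccl8 it was -2.833 in dendritic cells, -3.867 in CD8 T cells, -3.642 in CD4 T cells, -4.257 in regulatory T cells and -3.34 in NK cells, and for Apoe -4.122 in CD8 T cells and -3.816 in CD4 T cells. In CD4 T cells it was 1.116 for Ppp1r15a, -0.7936 for Rps29 and -0.9508 for Atp5k. In regulatory T cells it was 2.3 for Cd69, -1.069 for Rps29 and -1.401 for Rpl35, and in granulocytes -4.743 for H2-Eb1. The genotype, the flank and the library cannot be told apart in these differences.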

How the results depend on the processing

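Of 161 gene values, 141 were called, all 141 kept their direction under every setting that gave a value, and 99 also kept their call. The other 42 lost it under at least 1 setting. They were Apoe, Selenop, F13a1, Nos2, Il1b and Cmss1 in macrophages, Isg15, Nr4a1, Il1b, Tgfb1 and Il1rn in monocytes, H2-Aa, Cd74, Xcr1 and Ifngr1 in dendritic cells, Gzmb, Ccl3, Lag3, Lef1 and Apoe in CD8 T cells, Gzma, Lef1 and Havcr2 in CD4 T cells, Ikzf2, Areg, Gzmb and Nr4a1 in regulatory T cells, Klrd1, Tox, Tcf7 and Eomes in NK cells, S100a8, Fpr1, Tnfaip3, Cxcl10, H2-Eb1 and Cd74 in granulocytes, Gzmb, Klf6, Hspd1 and Nr4a2 in ILC1, and S100a8 in all CD45+ cells. Leaving out day 17 graft 1 lost the most calls (27). The cause of the shifts below was not tested, except that settings with fewer cells or UMIs test fewer genes.

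With each cell thinned to 1000 UMIs, 2500 genes were called between days in all CD45+ cells, 1157 in macrophages, 123 in dendritic cells, 11 in granulocytes, 600 in CD4 T cells, 192 in CD8 T cells, 42 in regulatory T cells, 163 in NK cells and 1 in ILC1. With no filter on low counts there were 639 in monocytes, 42 in granulocytes and 38 in ILC1. Without the 5% of cells with the most UMIs there were 492 in monocytes, 16 in granulocytes and 1 in ILC1. Fitting WT grafts alone gave 22 in monocytes, 0 in granulocytes, 175 in NK cells and 30 in ILC1. With library sizes alone there were 43 in granulocytes and 22 in ILC1, with at least 1 cell per graft 3 and 132, and in ILC1 23 with DESeq2 and 1 without cross-lineage cells (lymphoid cells with macrophage transcripts and myeloid cells with CD3 transcripts).

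With the hashtag number as a replicate block, 201 genes were called in monocytes and 0 in ILC1, and the difference between genotypes had 9 calls in all CD45+ cells, 5 in macrophages, 4 in granulocytes, 17 in regulatory T cells and 0 in ILC1. The numbers are not stated to pair mice. Between WT grafts of equal number at day 10 and day 17, correlations of deviations were 0.0297, 0.166, -0.0899 and 0.25 for hashtags 1 to 4 over 3232 genes. The pairing of WT with mutant grafts of the same day was not checked. Other counts under the block stayed within 1.5 times. For the difference between genotypes, DESeq2 called 93 genes in all CD45+ cells, 43 in macrophages, 7 in monocytes, 12 in dendritic cells and 15 in regulatory T cells. With no filter it was 9 in macrophages, 9 in monocytes, 39 in dendritic cells, 21 in granulocytes, 138 in CD4 T cells, 79 in CD8 T cells, 47 in regulatory T cells, 33 in NK cells and 4 in ILC1.

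Among shares, none of which passed, the difference of day 17 minus day 10 turned for NK cells (0.5481 points) and regulatory T cells (0.3244) among cells with at least 2000 UMIs, and for B cells (-0.03866) and regulatory T cells (0.01685) without the cells with the most UMIs.

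Medians of gene lists moved with library sizes alone in macrophages (MHC class I -0.3431, MHC class II 0.05779, respiratory chain -0.4458, ribosomal proteins -0.09448, immediate early 0.1353), CD4 T cells (respiratory chain -0.3561, ribosomal proteins -0.1427), CD8 T cells (-0.2442 and -0.01645) and regulatory T cells (ribosomal proteins -0.3067). After thinning, the heat shock median was -2.242 in CD4 T cells, -1.639 in CD8 T cells and -1.966 in NK cells, the immediate early median 0.3275 in CD8 T cells and 0.8723 in regulatory T cells, and the cytotoxic median 0.1457 in CD4 T cells, -0.03959 in CD8 T cells and 0.5545 in NK cells. It was -0.8483 for interferon gamma in monocytes, -1.871 for type I interferon in regulatory T cells and -1.321 for the cell cycle in all CD45+ cells. Without cross-lineage cells, chosen for lists after seeing the data, the heat shock median was -2.414 in NK cells and the cytotoxic median 0.01008 in CD4 T cells.

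Log2 fold changes that turned were of genes not called. These were Arg1 in macrophages with the block (-0.2778), Prf1 in CD8 T cells with DESeq2 (0.05098), library sizes alone (0.1041) and no cross-lineage cells (0.1246), Ifng without cross-lineage cells (-0.1277) and with at least 20 cells (-0.04261), Pdcd1 with library sizes alone (0.01652), Ccl8 with library sizes alone in CD8 (0.1002) and CD4 T cells (0.159) and after thinning in CD8 (0.08243), CD4 (0.2282) and regulatory T cells (0.4559), and Foxp3 with library sizes alone (0.07194) and without cross-lineage cells (0.146).

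When each graft was left out in turn, the calls between days ranged from 36 (without day 17 graft 1) to 1299 (without day 17 graft 3) in monocytes, 324 to 669 in dendritic cells, 10 to 49 in granulocytes, 943 (without day 17 graft 1) to 1900 in CD4 T cells, 476 (without day 17 graft 1) to 729 in CD8 T cells, 189 (without day 10 graft 1) to 341 in NK cells and 0 to 16 in ILC1. Calls for the difference ranged from 8 to 180 in all CD45+ cells (the latter without day 17 graft 3), 1 to 4 in macrophages, 0 to 4 in dendritic cells, 4 to 19 in granulocytes, 27 to 46 in CD8 T cells, 15 to 42 in regulatory T cells and 0 to 8 in ILC1. Differences of shares ranged from -0.09032 to 0.2906 points for B cells, -6.801 to 2.064 for CD4 T cells and -0.6417 to 0.283 for regulatory T cells, and the log2 ratio of regulatory to CD4 T cells from -0.0931 to 0.7792. List medians ranged from -2.428 to -1.914 (heat shock, all CD45+), -2.991 to -2.33 (monocytes) and -2.351 to -2.005 (CD4 T cells), -1.343 to -0.7464 (interferon gamma, dendritic cells) and -0.592 to -0.08421 (NK cells), 0.3018 to 0.6952 (MHC class II, all CD45+), -0.3037 to -0.1381 (ribosomal proteins, CD8 T cells), -0.2051 to 0.1059 (immediate early, macrophages) and 0.8163 to 1.196 (CD4 T cells), -0.7666 to -0.1138 (cytotoxic, CD4 T cells), -0.08363 to 0.1146 (CD8 T cells) and -0.06488 to 0.3475 (NK cells), 0.1386 to 0.8262 (inhibitory receptors, CD8 T cells) and -1.06 to -0.392 (glycolysis, macrophages). For genes not called, log2 fold changes ranged from -2.004 to 1.199 for Arg1 and -0.009798 to 0.1868 for H2-Aa in macrophages, -0.3308 to 0.2462 for Prf1, -0.04261 to 0.6022 for Ifng, -0.8127 to 0.2704 for Pdcd1 and -0.2045 to 0.05888 for Ccl8 in CD8 T cells, -0.3237 to 0.2069 for Ccl8 in CD4 T cells, -0.4935 to 0.1331 for Foxp3 and -0.7661 to 0.2893 for Ccl8 in regulatory T cells, and -0.04706 to 0.3293 for Gzma, -0.2687 to 1.23 for Gzmb and -0.06488 to 1.03 for Prf1 in NK cells.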

Other observations

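Genes that rose were longer than genes that fell. In macrophages the median span of a gene on the genome was 75.55 kb for genes called higher at day 17 and 12.79 kb for genes called lower, against 24.93 kb over all tested genes. In CD8 T cells the medians were 45.59 and 13.35 kb (26.92 kb over all) and in NK cells 37.89 and 17.85 kb (31.21 kb over all). In Rnls mutant macrophages the medians were 67.25 kb for genes called higher and 12.83 kb for genes called lower. They were 69.94 and 14.03 kb in mutant CD8 T cells and 29.4 and 12.64 kb in mutant NK cells. The median depth of a WT macrophage was 5702 UMIs at day 10 and 7715 at day 17, and that of a mutant one 5746.5 and 3630. The part of depth in this difference of length was not tested. The span was examined after the data were seen.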
